A study of Rattus norvegicus with 2 samples.

Results

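The TGF-beta and activin family was followed here through 10 genes of its ligands, receptors and antagonist in rat liver after senecionine, a plant alkaloid of the pyrrolizidine class that injures the liver once hepatic enzymes turn it into reactive pyrroles. The genes were the ligands Tgfb1, Tgfb2 and Tgfb3, the receptors Tgfbr1 and Tgfbr2, the inhibin beta subunits Inhba, Inhbb, Inhbc and Inhbe, and the antagonist Fst. They were found on the array through the RefSeq transcript accession of each non-control probe, which gave 14 probes for 9 of the 10 genes, among 17250 named probes for 13667 genes. No probe could be named for Inhbe, so it was not analysed here.

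The treated group was Sprague Dawley rats given senecionine into the stomach at 35 mg/kg, and the control group was Sprague Dawley rats given sodium chloride. Livers of both groups were collected after 36 h. Liver RNA of 3 animals was pooled per group and hybridised to 1 Agilent single-colour (Cy3) array, so there were no replicates, the spread between animals is unknown, and no p-value is given. The sex and age of the animals are not given in the sources used here.

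In this family each mature ligand is a dimer. TGF-beta ligands are secreted in a latent form bound to matrix proteins, are released by integrins and proteases, and bind TGFBR2, which then activates TGFBR1 and through it the SMAD proteins that enter the nucleus. Activins are dimers of inhibin beta subunits, act through their own type II and type I receptors on the same SMAD branch, and are held back by follistatin, the product of Fst. In liver, TGF-beta1 and activin A are known as brakes on hepatocyte growth, TGF-beta1 is also known as a driver of stellate cell activation, and Inhbc and Inhbe are known as subunits made chiefly by hepatocytes.

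Signals are Agilent processed intensities, and ratios are senecionine minus control on the log2 scale after each array was divided by its 75th percentile, which was 134 intensity units on the senecionine array and 101 on the control array. The scanner software called 64.1% of spots well above background on the senecionine array and 44.4% on the control array. The error beside a ratio is the software's spot error and covers the measurement of a spot only. The dimmest spot so called had 10.8 units on the senecionine array and 20.6 units on the control array. A probe called on only 1 array was therefore given a bound, against the higher of its own dim signal and that lowest signal. RNA of pooled livers does not tell fewer cells of a type from less RNA per cell.

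All 3 TGF-beta ligands and the activin antagonist Fst were brighter after senecionine. The activin subunits Inhba and Inhbc were dimmer, and the probes of the subunit Inhbb disagreed, with values between a log2 ratio of -0.33 and a bound of at least 9.19-fold higher. Of the 9 genes with a probe, 5 were well above background on both arrays, 3 on the senecionine array alone (Tgfb2, Tgfb3 and Fst) and 1 on the control array alone (Inhba). Across all named genes these shares were 57.1%, 19.1% and 1.24%. Of the 5 measured members, 1 was at least 2-fold higher (Tgfb1), 1 was at least 2-fold lower (Inhbc) and 3 lay within 2-fold (Tgfbr1, Tgfbr2 and Inhbb), where 11.2% of all 7803 measured genes were higher and 17.7% lower. The median log2 ratio of the 5 was 0.25, and that of all measured genes -0.14.

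**Figure D1:**
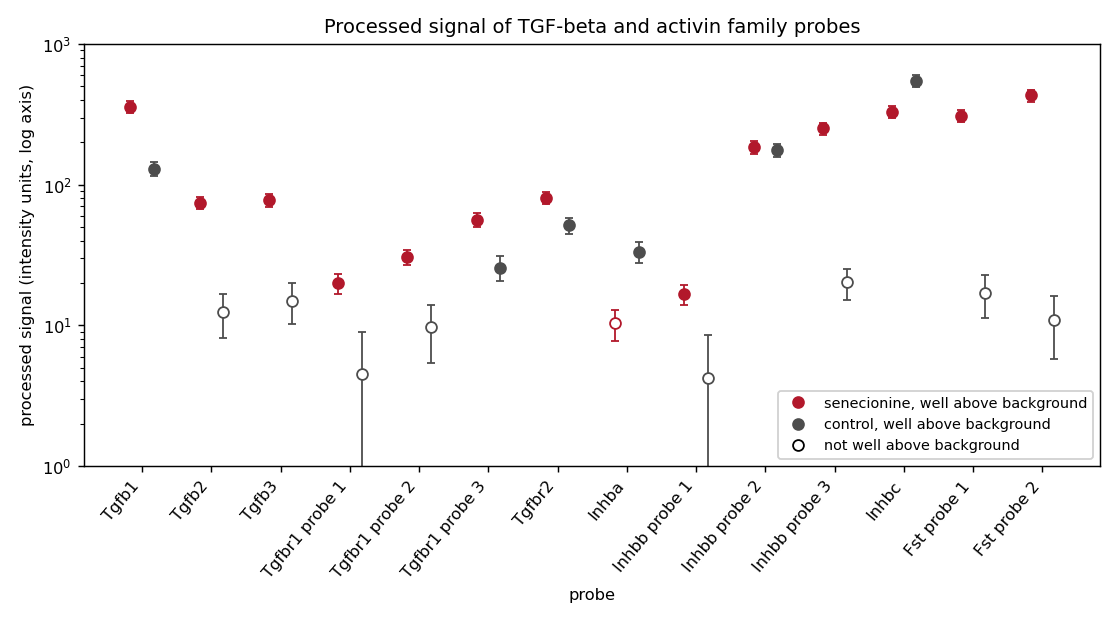
Processed signal in intensity units (log axis) of each family probe on the senecionine array (red, left of each pair) and on the control array (grey), with bars for the spot error, which runs off the axis for the dimmest probes. Filled points are well above background. Fst and Tgfb2 stand well above background on the senecionine array alone, and Inhba on the control array alone.

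Tgfb1, the main TGF-beta ligand of injured tissue, was spotted 10 times per array. Before scaling, its signals ran from 334 to 389 units on the senecionine array and from 114 to 141 units on the control array. These spots repeat the same probe on the same pooled RNA, so they are no replicates of a group. The scaled log2 ratio was 1.06 ± 0.21, or 2.08-fold higher. Spot by spot the ratio ran from 0.93 to 1.19, and 8 of the 10 spots passed 2-fold. The SD between spots was 0.06 on the senecionine array and 0.08 on the control array, on the log2 scale. Among the 7803 measured genes Tgfb1 stood at percentile 89.8 of the log2 ratios. It lies close to the 2-fold line, and it fell short of it with array median scaling (0.93) and with normexp correction, a model-based background correction (0.92).

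Tgfb2, a ligand known chiefly from epithelia and development, had 74.5 ± 7.77 units on the senecionine array, and 12.4 ± 4.34 units on the control array, where it was not called well above background. It was at least 2.73-fold higher. Tgfb3, the ligand most often named in wound repair without scarring, had 77.3 ± 8.10 units on the senecionine array, and 15.0 ± 4.83 units on the control array, where it was again not called. It was at least 2.83-fold higher. Each rested on 1 spot per array. With normexp correction these bounds shrank to log2 values of 0.65 for Tgfb2 and 0.38 for Tgfb3. Bounds of at least 2-fold on the senecionine array alone were found for 2.32% of all named genes, and for 12.1% of the 2612 genes called on that array alone.

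Because the 3 ligands stood on the same side of the control and the activin subunit Inhbc on the other, their promoter windows are shown, each with 250 bases before and 50 after the annotated gene start, from RefSeq on build GRCr8. The windows are chr1:90324062-90324361, plus strand for Tgfb1; chr13:100792636-100792935, minus strand for Tgfb2; chr6:111456897-111457196, minus strand for Tgfb3; and chr7:65082870-65083169, minus strand for Inhbc. Capitals mark the matches to the motifs searched, and the sequences run 5′ to 3′ along the gene.
Tgfb1: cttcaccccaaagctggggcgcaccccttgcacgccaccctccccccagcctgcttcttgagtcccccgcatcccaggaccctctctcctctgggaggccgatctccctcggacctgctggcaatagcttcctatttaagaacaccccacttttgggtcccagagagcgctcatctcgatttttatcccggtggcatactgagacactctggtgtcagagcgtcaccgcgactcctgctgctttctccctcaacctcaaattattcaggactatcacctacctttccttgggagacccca
Tgfb2: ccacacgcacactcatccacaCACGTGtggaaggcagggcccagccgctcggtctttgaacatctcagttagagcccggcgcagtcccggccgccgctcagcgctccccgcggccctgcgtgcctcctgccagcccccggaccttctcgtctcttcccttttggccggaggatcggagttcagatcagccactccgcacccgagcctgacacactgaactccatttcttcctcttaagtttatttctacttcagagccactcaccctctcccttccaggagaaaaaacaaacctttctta
Tgfb3: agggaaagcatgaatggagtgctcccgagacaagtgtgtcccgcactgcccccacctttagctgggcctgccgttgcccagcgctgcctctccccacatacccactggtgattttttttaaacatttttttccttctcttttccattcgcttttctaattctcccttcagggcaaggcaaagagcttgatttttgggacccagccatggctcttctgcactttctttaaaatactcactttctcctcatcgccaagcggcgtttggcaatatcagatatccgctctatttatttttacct
Inhbc: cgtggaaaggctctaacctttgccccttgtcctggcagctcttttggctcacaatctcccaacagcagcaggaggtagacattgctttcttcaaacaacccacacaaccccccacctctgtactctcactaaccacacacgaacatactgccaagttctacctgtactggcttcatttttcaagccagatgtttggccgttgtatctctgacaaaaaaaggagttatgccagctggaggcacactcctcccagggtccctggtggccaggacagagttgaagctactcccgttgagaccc

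The motifs searched on both strands were the AP-1 element TGANTCA, the cAMP response element TGACGTCA, the C/EBP-ATF response element TGATGNAAT, the SMAD box CAGAC, the palindromic SMAD element GTCTAGAC, the GC box GGGCGG, the TATA box TATAAA, the HNF4 element CAAAGTCCA, the CCAAT box, the E box CACGTG, the STAT element TTCNNNGAA and the FOXA element TGTTTAC. The only match in these 4 windows was the E box of Tgfb2, which starts at position -229 from the gene start. An E box is present in 6.42% of 33469 rat promoter windows of the same length. The GC box, found in 33.1% of all windows, had 3 matches at Tgfbr1, 1 at Tgfbr2 and 6, partly overlapping, at Inhbb. The SMAD box, found in 50.1% of windows, was present at Inhba and Inhbe. The CCAAT box, found in 37.5% of windows, was present at Tgfbr1, Tgfbr2, Inhba and Inhbe. The TATA box, found in 14.2%, was present at Inhba. A window was available for 9 members but not for Fst, which was therefore not searched. The windows differed in base composition, with a GC content of 84.3% at Inhbb and 74.7% at Tgfbr1, against 57.7% at Tgfb1, 59.0% at Tgfb2, 47.7% at Tgfb3 and a median of 51.7% over all windows.

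Tgfbr1, the signalling type I receptor, had 56.3 ± 6.07 units on the senecionine array and 25.7 ± 5.18 units on the control array on its brightest probe. The log2 ratio was 0.73 ± 0.33, or 1.65-fold higher, at percentile 82.8 of measured genes and within 2-fold. Its other probes had 30.5 and 19.9 units on the senecionine array, against 9.67 and 4.49 units on the control array, where neither was called well above background. Tgfbr2, the ligand-binding type II receptor, had 80.7 ± 8.36 units on the senecionine array and 51.3 ± 6.65 units on the control array. Its log2 ratio of 0.25 ± 0.24 was about the size of its spot error. With normexp correction the Tgfbr1 ratio of the brightest probe was 0.24.

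Inhba encodes the subunit of activin A. It had 10.3 ± 2.55 units, not well above background, on the senecionine array and 33.4 ± 5.78 units on the control array, which puts it at least 4.11-fold lower. All genes detected on the control array only had a bound of at least 2-fold (100% of 169), which follows from the lower limit on the senecionine array. With the control array's limit, after scaling, set for both arrays, the Inhba difference was -0.70 on the log2 scale. Under that shared limit 4 of the 9 members were at least 2-fold higher (Tgfb1, Tgfb2, Tgfb3 and Fst) and 1 lower (Inhbc), where 13.2% of 9082 genes were higher and 15.2% lower. The control array also carried transcripts known from brain, a tissue in which Inhba is expressed. Of 19 brain markers with a probe, 9 were measured on both arrays and 8 of these were at least 2-fold lower after senecionine, where 17.7% of all measured genes were lower. The median log2 ratio of the 9 was -2.80. The summed level of the markers measured on both arrays, in units of each array's 75th percentile and here as for the lists that follow, was 5.92 on the senecionine array and 80.7 on the control array. Another 2 markers were called on the senecionine array alone and 3 on the control array alone, where the shares of all named genes were 19.1% and 1.24%. The part of the brain transcripts in the Inhba value was not tested.

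Inhbb, the subunit of activin B, gave values that depended on the probe. Its only probe called on both arrays had 185 ± 18.7 units on the senecionine array and 176 ± 18.1 units on the control array, a log2 ratio of -0.33 ± 0.21. Another probe of the same transcript had 251 ± 25.2 units on the senecionine array, against 20.2 ± 5.08 units on the control array, where it was not called well above background, and so stood at least 9.19-fold higher. The remaining probe was called on the senecionine array only, at 16.6 units, against 4.24 units on the control array, and gave no bound. The probes thus disagree on whether Inhbb differed, and the probe sequences were not used here.

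Inhbc, the subunit of activin C and a neighbour of Inhbe on its chromosome in the RefSeq table, had 329 ± 33.0 units on the senecionine array and 548 ± 55.0 units on the control array. The log2 ratio was -1.14 ± 0.20, or 2.21-fold lower, at percentile 14.5 of measured genes. With normexp correction it was -0.76, within 2-fold. At least 2-fold lower were 4 of 6 measured hepatocyte markers, and no marker was higher, with a median log2 ratio of -1.25, where 17.7% of all measured genes were lower. Fgb, a fibrinogen chain among the markers within 2-fold, had log2 ratios of -0.34 and 0.58 on its probes. Their summed level was 2324 on the senecionine array and 4138 on the control array, in units of the 75th percentile. Their part in the Inhbc value was not tested.

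Fst encodes follistatin, which binds activins and keeps them from their receptors. Its probes had 309 ± 31.0 and 430 ± 43.1 units on the senecionine array, against 17.1 ± 5.86 and 10.9 ± 5.16 units on the control array, where neither was called well above background. They were at least 11.3-fold and at least 15.8-fold higher. These bounds were the largest among the family's probes, and with normexp correction that of the first was still 1.98 on the log2 scale. In each scaling, background and floor setting run, the Fst bound stayed past 2-fold.

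**Figure D2:**
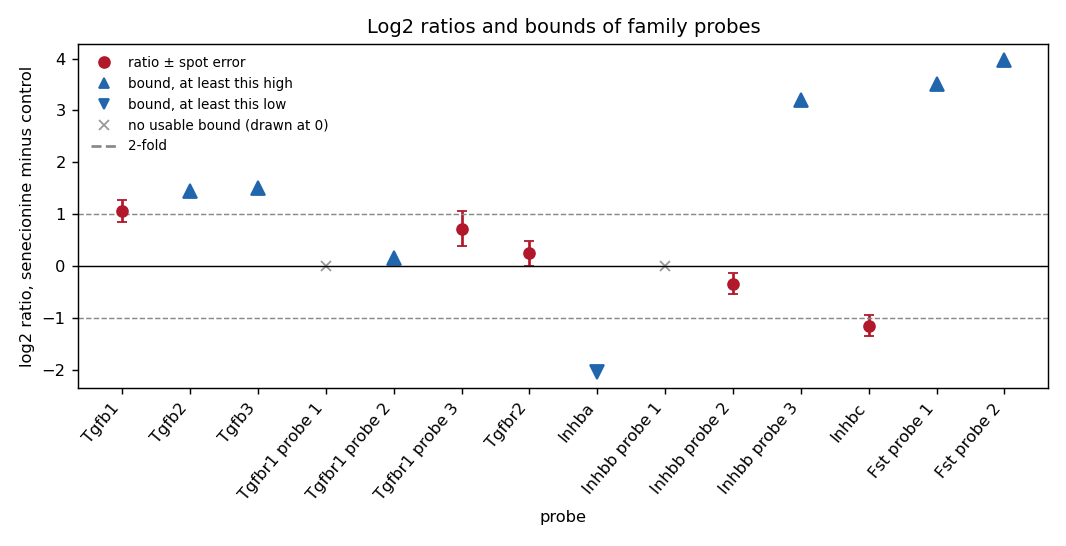
Log2 ratio, senecionine minus control, of each family probe. Circles are probes well above background on both arrays with the spot error, and dashed lines mark 2-fold. Triangles are bounds for probes detected on 1 array. Grey crosses on the solid line, for a probe of Tgfbr1 and a probe of Inhbb, mark probes without a usable bound and are no ratios. The Fst bounds of 3.50 and 3.98 are the highest, and the other probes of Inhbb lie at -0.33 and at a bound of 3.20.

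Cell types known to express TGF-beta ligands did not share a direction. For comparison with the counts here, 11.2% of all measured genes were at least 2-fold higher and 17.7% lower. Of all named genes, 19.1% were called on the senecionine array alone and 1.24% on the control array alone. Among 8 measured stellate cell genes, 3 were at least 2-fold higher and 1 lower, with summed levels of 35.5 on the senecionine array and 31.5 on the control array. Another 2 were called on the senecionine array alone, Rgs5 at least 4.76-fold higher and Ngfr at least 1.05-fold higher. Among 11 Kupffer cell and macrophage genes, 3 were higher and 6 lower, with summed levels of 292 and 305 in the same order of arrays. A further gene of the Kupffer cell and macrophage list, Itgam, was called on the senecionine array alone and was at least 4.16-fold higher. Among 6 sinusoidal endothelial genes, 4 were lower and none higher (39.3 on the senecionine array, 115 on the control array). A further endothelial gene, Cdh5, was called on the senecionine array alone, with a bound of 1.01-fold higher. Platelets carry stored TGF-beta1, and of their markers 2 were measured, Pf4 and Gp1bb, with log2 ratios of 3.37 and 0.98. The summed level of these 2 was 15.0 on the senecionine array against 2.49 on the control array. Another 3 platelet markers were called on the senecionine array alone and 1 on the control array alone. Of the 3, Treml1 was at least 8.70-fold and Gp9 at least 1.97-fold higher. Gp1ba gave no bound, with 21.9 units on the senecionine array and 24.4 units on the control array. Itgb3, called on the control array alone, was at least 3.57-fold lower. Among 3 bile duct genes, 2 were higher (3.51 on the senecionine array, 0.96 on the control array). A further gene of the bile duct list, Spp1, which macrophages can also express, was called on the senecionine array alone, at 2915 units against 5.15 units on the control array, and had a lower bound of 6.74 on the log2 ratio. The markers not well above background on either array were Cd163 for macrophages, Pecam1 and Tek for endothelium, Ppbp for platelets and Cftr for bile duct. The part of these cells in the ligand values was not tested.

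The rest of the pathway was read from 8 lists holding 128 genes, of which 109 had a probe. Past 2-fold stood 11 higher and 12 lower genes among 62 that could be measured, with a median log2 ratio of -0.16, near that of all measured genes. Over all 7803 measured genes 11.2% were higher and 17.7% lower, and these shares stand beside each list count below. Another 24 pathway genes were called on the senecionine array alone and 2 on the control array alone, where the shares of all named genes were 19.1% and 1.24%. Lists share some genes, so their counts are not separate.

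Among the other receptors and coreceptors none of 7 measured genes was at least 2-fold higher and 1 was lower. That was Hjv, the haemojuvelin coreceptor of BMP signalling in hepatocytes, with 446 units on the senecionine array and 1042 units on the control array (log2 ratio -1.63 ± 0.20). The endothelial coreceptor Eng had a log2 ratio of -0.64, the decoy receptor Bambi -0.61 and the endothelial type I receptor Acvrl1 0.55. Of the activin type II receptors, Acvr2b had a log2 ratio of -0.33 ± 0.29, and Acvr2a was detected on the senecionine array only (23.1 units, against 8.25 units on the control array), without a bound. Acvr1c, a type I receptor that can bind activins, was likewise detected on the senecionine array only, at 18.9 units, against 5.43 units on the control array.

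Of the SMAD proteins, 3 were measured. Smad7, the inhibitory SMAD that TGF-beta signalling itself induces, had 312 units on the senecionine array and 702 units on the control array, and was 2.99-fold lower (log2 ratio -1.58 ± 0.20). Smad6, the inhibitory SMAD of the BMP branch, had a log2 ratio of -0.76, and the BMP-branch SMAD gene Smad1 one of 0.31. Smad2, which carries the TGF-beta signal, was detected on the senecionine array only, as was Smad5, and Smad3 was well above background on neither array. Among 7 modulators 1 was higher and 1 lower. Tgif1, a corepressor of SMAD proteins, had 629 units on the senecionine array and 114 units on the control array (2.05 ± 0.21), whereas Pmepa1, a negative feedback gene of TGF-beta signalling, had 39.4 and 82.5 units in the same order (-1.47 ± 0.23). Fkbp1a, which binds the type I receptor, had a log2 ratio of 0.34 and Tgif2 one of -0.22.

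By their brightest probes, genes of latency and activation were at least 2-fold lower in 3 and higher in none of 9. Plg, the plasminogen precursor, had a log2 ratio of -1.60, the protease Furin, which cuts the ligand precursors, -1.25, and the integrin subunit Itgb5 -1.16. The gelatinase Mmp2 (0.81) and the latency binding protein Ltbp1 (0.76) lay within 2-fold. Fbn1 differed between its probes, with log2 ratios of 0.15 on the brightest one and 1.36 on the other. On the senecionine array only, the urokinase Plau was at least 3.69-fold higher, its receptor Plaur at least 2.68-fold and Mmp9 at least 2.42-fold. Thbs1, an activator of latent TGF-beta1, was at 10.9 units on the senecionine array, near the limit of detection, and at 4.22 units on the control array.

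Secreted antagonists besides Fst were higher in 2 and lower in 1 of 8. Dcn, the matrix proteoglycan decorin that binds TGF-beta and is also a stellate cell marker, was 11.8-fold higher, with 744 units on the senecionine array and 47.7 units on the control array. The proteoglycan Bgn was 2.26-fold lower, and the BMP antagonist Nbl1 had a log2 ratio of -0.82. Inha encodes the alpha subunit that makes inhibins with the beta subunits. Its log2 ratio of 0.07 ± 0.22 was smaller than its spot error. Fstl3, the follistatin-like activin antagonist, had no probe that could be named here.

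Other ligands of the superfamily stood lower in 2 and higher in 1 of 7. Gdf15, a stress-induced divergent member, was 16.3-fold higher, with 507 units on the senecionine array and 23.5 units on the control array. Bmp7 had a log2 ratio of -1.46 ± 0.24, and Bmp1, a metalloprotease grouped here by its name, one of -1.22 ± 0.20. Gdf6 (-0.88) and Bmp2 (-0.62) lay within 2-fold.

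Known target genes of TGF-beta split. Past 2-fold stood 7 higher and 5 lower genes among the 20 that could be measured, with a median log2 ratio of -0.01. Higher were the cell cycle inhibitor Cdkn1a (5.37 ± 0.21), also a p53 target, the matricellular gene Ccn2 (3.36 ± 0.27), the protease inhibitor Timp1 (3.08 ± 0.21) and the smooth muscle gene Tagln (2.80 ± 0.22). Smad7, Pmepa1 and Itgb5, given above, and Tgfbi and Sparc, both at -1.14, were the 5 lower ones. Col4a1, counted among the higher genes, differed between its probes, with log2 ratios of 1.10 on the brighter one and -0.71 on the dimmer one. Several members of the list are also known as targets of other pathways. BMP targets were higher in 1 and lower in 2 of 8. Id1 was 4.35-fold higher and Id4 3.19-fold lower, while the iron hormone Hamp, a target of BMP6 signalling in hepatocytes, had a log2 ratio of -0.21 ± 0.20.

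In the list of ATF4 and CHOP genes, the stress response that is known to raise Inhbe in hepatocytes, 2-fold was passed upward by 7 of 12 measured genes and downward by none. Over all measured genes 11.2% passed it upward and 17.7% downward. The median log2 ratio of the list was 1.37. Atf3 (6.02), Fgf21 (2.83), Ppp1r15a (2.56) and Asns (2.49) had the highest log2 ratios, Ddit3, which encodes CHOP, one of 1.71 ± 0.25, and Atf4 itself one of 0.20 ± 0.20.

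**Figure D3:**
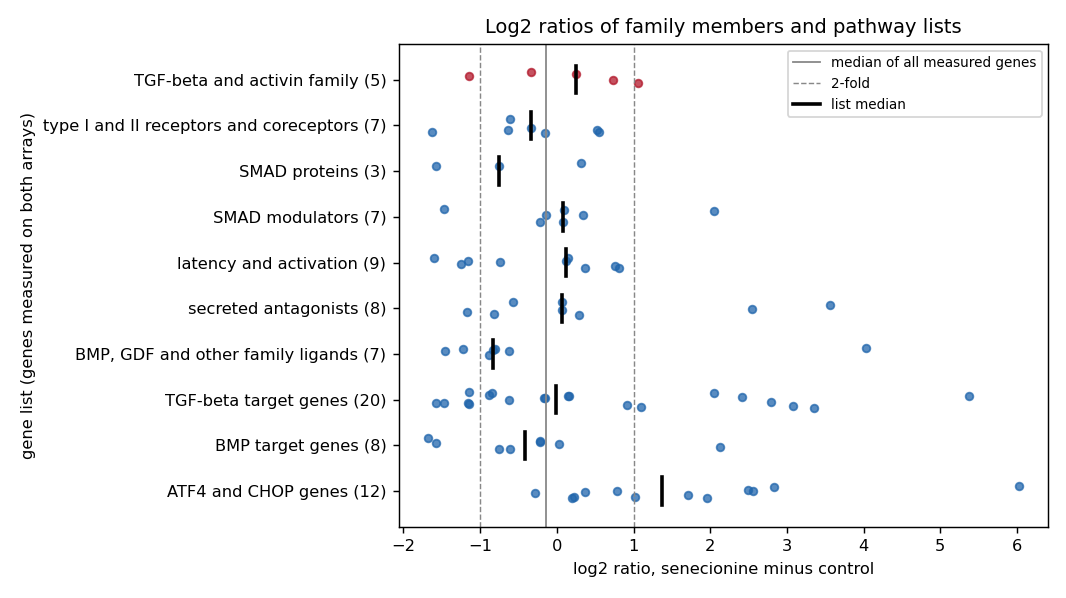
Log2 ratio, senecionine minus control, of each gene measured on both arrays, by list, with the number measured in brackets. Short black bars are list medians, the grey line is the median of all measured genes (-0.14) and dashed lines mark 2-fold. The family and the pathway lists spread to both sides, and the ATF4 and CHOP list has its median at 1.37.

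The authors' deposited table, whose smallest absolute log2 difference of 1.00 shows that it lists probes past 2-fold, holds 10 of the 14 family probes. In the authors' deposited table the differences, senecionine minus control, are 1.08 for Tgfb1, 2.13 for Tgfb2, 1.96 for Tgfb3, -1.08 for Inhbc and -2.40 for Inhba. The authors' deposited table gives 3.84 and 4.89 for the probes of Fst, 2.35 and 1.07 for the dimmer probes of Tgfbr1, and 3.30 for Inhbb. For Inhbb it lists the probe with 251 units on the senecionine array, 1 of 2 called on that array alone, and not the probe called on both arrays.

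**Figure D4:**
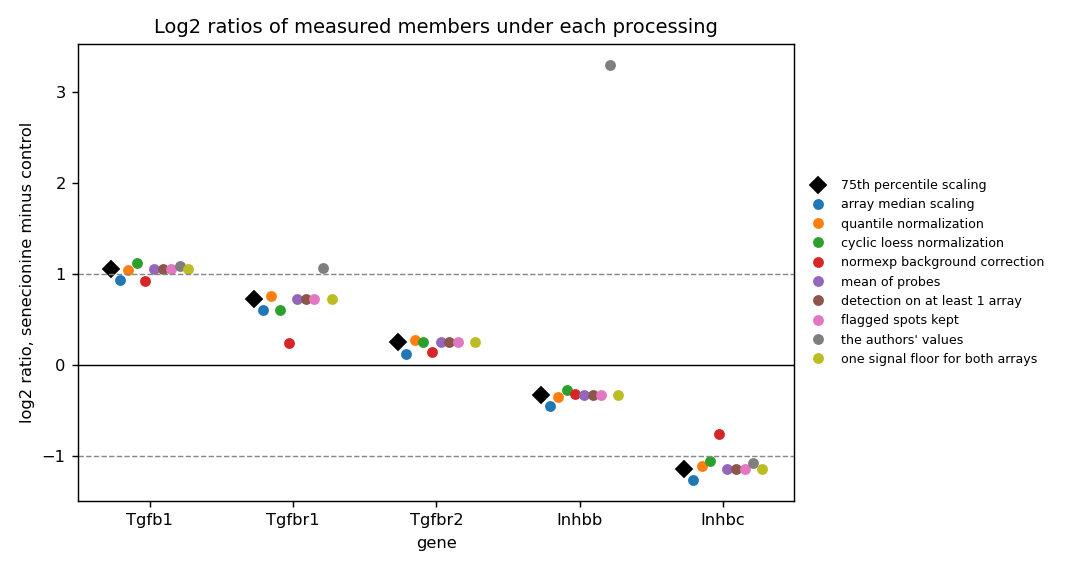
Log2 ratio, senecionine minus control, of the 5 measured members under each processing alternative, with 75th percentile scaling as black diamonds and dashed lines at 2-fold. Tgfb1 lies between 0.92 and 1.12 in every setting drawn, and Inhbb moves to 3.30 with the authors' values, which list another probe. For Tgfbr1, too, the authors' values (1.07) are those of another probe.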

How the data were processed

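Liver RNA of 2 pools was measured on 2 arrays, 1 for senecionine and 1 for control; groups come from the sample titles. The intensity values were deposited by the authors as Agilent Feature Extraction 10.7.3.1 output, per the file headers, which record background subtraction and detrending within each array and no scaling between arrays. The authors also deposited log2 values for 7404 probes, with a scaling that no source used here states. Of these, 7355 were compared here and all had the same direction as the scanner ratios (Pearson r = 0.994 across probes, a description, since probes are no replicates). Both sets of values come from the same arrays, and the authors list only probes past 2-fold. The shared direction was thus largely given in advance and is no independent check. The medians of the authors' columns were 6.10 for senecionine and 6.03 for control.

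Control spots and spots with an outlier flag (497 on the senecionine array, 522 on the control array) were left out, and repeated spots of a probe were averaged as log2 values. Probes were named by matching unversioned accessions to the RefSeq table of GRCr8. A gene took its brightest probe well above background on both arrays. With 1 array per group there was no test, and genes were counted at 2-fold. The median spot error of the ratios was 0.21. Members and lists were chosen with earlier results of these data known. Genes named were all members, up to 4 per pathway or stress list by absolute ratio, and a fixed list; any other named gene was chosen after its values were seen. Some genes of these lists are not reported here by name. The normexp correction (offset 50) took median in place of the planned mean spot signals, which the files lack. Alternatives were 10 planned settings and 1 added after seeing the data, 1 signal floor for both arrays. Counting was tested on simulated data. Normalizations were run in R 4.3.3 with limma 3.58.1, and all else in Python 3.11.15 with pandas 2.3.3, numpy 2.4.6 and matplotlib 3.10.9.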

Additional observations from a re-analysis of the deposited data

How the results depend on the processing

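With 1 pooled array per group, the number of arrays limits the precision, and dim probes have only bounds. No paired analysis was possible because each group has 1 array and the labels give no replicate numbers. The count of family members at least 2-fold higher, 1 as reported, was 2 at 1.5-fold, 0 at 3-fold, 0 with array median scaling, 0 with normexp correction, 4 of 9 with detection on at least 1 array (where 22.6% of 10592 genes were higher and 14.7% lower), 4 of 9 with 1 signal floor for both arrays (where 13.2% of 9082 genes were higher), and 6 of 8 with the authors' values, which list only probes past 2-fold. The count at least 2-fold lower, 1 as reported, was 0 at 3-fold, 0 with normexp correction, 2 of 9 with detection on at least 1 array and 2 of 8 with the authors' values. Of the pathway genes, 11 of 62 were higher as reported. With detection on at least 1 array 24 of 88 were, where 22.6% of all genes were higher. With the authors' values 19 of 33 were, where 57.8% of 3516 genes were higher and 42.2% lower. Lower were 12 of 62 as reported, 24 at 1.5-fold, 3 at 3-fold and 7 with normexp correction. Over all 7803 measured genes 21.0% were higher at 1.5-fold, 4.69% at 3-fold, 9.10% with array median scaling and 7.86% with normexp correction. The shares lower were 31.1%, 7.88%, 21.3% and 9.75% in the same order of settings. The cause was not tested beyond the construction of each alternative: detection on 1 array adds dim probes, and the normexp offset of 50 exceeds the signal of several of them. No ratio or bound of a member reversed in the settings run, apart from Inhbb, which took another probe in the authors' values (3.30). Tgfbr1 also took another probe in the authors' values, with a log2 difference of 1.07, past 2-fold. Of 198 counts of single lists under the alternatives, 165 stayed within 1.5 times and 33 did not. Among all measured genes, higher ones made up 38.9% of those past 2-fold, but 60.5% with detection on at least 1 array, 57.8% with the authors' values and 30.0% with array median scaling, which put the median log2 ratio of all genes at -0.26, against -0.14.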
